A study of Mus musculus with 2 samples.

Results

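The genes described are 10 components of MHC class I antigen processing: the light chain B2m, the heavy chains H2-K1 and H2-D1, the peptide loading genes Tap1, Tap2 and Tapbp, and the immunoproteasome genes Psmb8, Psmb9, Psmb10 and Psme1. They were chosen by symbol, as all probes that the platform annotation pairs with those names, and all 10 had a probe among the 16593 named genes of the array. The samples were Bach2 KO and WT mice on a C57BL/6 background, both labelled male, aged 7 weeks for the knockout and 6 weeks for wild type. Regulatory T cells were sorted from spleen as CD4+ CD25+ GITR+ cells, and total RNA was hybridised to an Illumina BeadChip, on which each probe reports an intensity for its transcript. There was 1 array per genotype, so differences carry no replicate error and no p-value, and each value describes these 2 arrays. Bach2 is a transcription factor of the bZIP family, known in lymphocytes mostly for repressing genes. The question here is whether class I processing genes differ in regulatory T cells without it. How many animals stand behind each array, and how the Bach2 allele was made, is not stated in the labels.

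MHC class I molecules display peptides of cytosolic proteins to CD8 T cells and are read by receptors of NK cells. Proteins are cut by the proteasome, and cells of the immune system replace its constitutive catalytic subunits with inducible ones to form the immunoproteasome. The peptides are pumped into the endoplasmic reticulum by the TAP transporter and loaded onto a heavy chain paired with B2m. Most of these genes are induced by interferons, through factors that include NLRC5 and IRF1, and lymphocytes keep them high.

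Of these 10 genes, 7 lie on chromosome 17, which carries the mouse MHC, and Psmb9, Tap1, Psmb8 and Tap2 are 4 consecutive genes there in RefSeq's table. Psmb9 and Tap1 gave the largest differences of the 10 genes between the arrays, by the brightest probe of each gene. They are transcribed away from each other, with 225 bases between their starts. That stretch is shown because the 2 genes share it. It is given 5′ to 3′ on the plus strand, with Psmb9 running off to the left and Tap1 to the right, from RefSeq's promoter table for GRCm38.p6, at chr17:34187331-34187555. Capitals mark matches, on either strand, to a loose NF-kappaB motif of 10 letters that opens with GGG and closes with CC, with any letters between.
Tap1 and Psmb9: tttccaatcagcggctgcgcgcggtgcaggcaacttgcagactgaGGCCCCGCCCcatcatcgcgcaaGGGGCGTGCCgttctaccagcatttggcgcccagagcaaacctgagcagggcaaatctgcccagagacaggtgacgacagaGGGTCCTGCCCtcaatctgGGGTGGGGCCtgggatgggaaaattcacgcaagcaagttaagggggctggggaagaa

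The class I chains carry a known enhancer upstream of their starts, and 50 bases around it are shown to set the heavy chains beside each other and beside B2m. They were taken from the same table, each on the strand of its gene. They lie at chr17:34000433-34000482 on the minus strand for H2-K1, at chr17:35262899-35262948 on the plus strand for H2-D1 and at chr2:122147540-122147589 on the plus strand for B2m. Capitals mark the same motif and, in B2m, also the core of the interferon-stimulated response element, which is GAAA repeated after any 2 letters.
H2-K1: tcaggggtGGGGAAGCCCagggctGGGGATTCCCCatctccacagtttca
H2-D1: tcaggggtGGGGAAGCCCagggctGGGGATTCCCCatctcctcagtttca
B2m: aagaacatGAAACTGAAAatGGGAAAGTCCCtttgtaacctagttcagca
The H2-K1 and H2-D1 stretches had 49 of 50 letters in common.

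Windows of 250 bases before to 50 after the start were in the table for 9 of the 10 genes, all but Tap2. With both strands searched for each motif, the loose NF-kappaB motif, whose matches can overlap each other, was found in 6 of the 9 (B2m, H2-D1, H2-K1, Psmb9, Psme1 and Tap1) and in 50.8% of all 32851 windows of that length. The interferon response core was found in B2m and Psme1, against 3.44% of all windows, and the STAT motif TTCNNNGAA in Psmb8 alone of the 9, against 8.3%. The AP-1 and Bach core TGANTCA was found in 0 of the 9, against 7.81% of all windows, and its longer Bach and Maf form, which has TGC before that core, in 0 of the 9, against 0.423%. A match describes letters and is not a site, and a window without a match says nothing about the factor.

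Before the members are described, the labels were checked. No listed probe was paired with Bach2, so the deletion itself could not be checked here. The sex label of the knockout array was at odds with its data. Xist, the RNA that silences an X chromosome in females, read at least 7.27-fold higher on the Bach2 KO array by its brighter probe and was not detected on the WT array. The Y-linked genes Kdm5d and Eif2s3y were 6.37-fold and 3.60-fold lower on the Bach2 KO array and were still detected on it. Uty, also Y-linked, was detected on the WT array only. Sex, age and genotype cannot be told apart in this design. All 10 markers of regulatory and CD4 T cells, Foxp3 and Il2ra among them, were detected on both arrays and within 1.5-fold, with a median log2 difference of -0.03. Of 25697 probes, 10373 were detected on the Bach2 KO array and 10431 on the WT array. All log2 differences are Bach2 KO minus WT of normalized intensity, and a gene is given by its brightest detected probe. Within a gene, the log2 difference varied between probes with an SD of 0.23, over 1734 genes with several detected probes. This is the only measure of scatter here. It comes from the same 2 arrays and does not hold the variation between samples or between hybridisations.

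All 10 genes were expressed on both arrays and none differed by 1.5-fold. Of all 7611 genes with a value, 8.15% were higher in the knockout by 1.5-fold or more, 6.77% were lower by as much and 85.1% lay within 1.5-fold. At 2-fold the shares were 3.27% higher and 1.55% lower. The median log2 difference of the 10 genes was 0.07, against -0.03 for all genes. By sign, 8 of the 10 were above 0 and 2 below. Psmb9 and Tap1 were at least 1.2-fold higher, a line drawn with the values known. That is 2 of 10, and 20.3% of all genes detected on both arrays were past the same line, so the share was near the background. None was 1.2-fold lower, against 22.4% of those genes. The other 8 lay within 1.2-fold, as did 57.3% of all genes detected on both arrays.

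**Figure D1:**
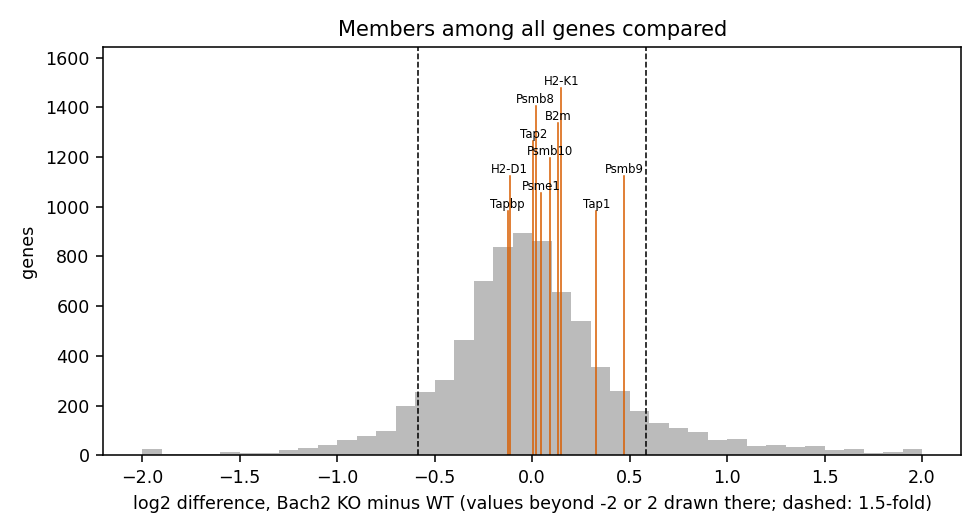
Histogram of the log2 difference (Bach2 KO minus WT, x axis) of the 7611 genes compared, with the number of genes on the y axis and the 10 class I genes drawn as labelled lines. All 10 lines fall between the dashed 1.5-fold limits, with Psmb9 farthest to the right at 0.47.

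The chains of the class I molecule were at like levels on the 2 arrays. B2m, the invariant light chain that every classical class I molecule needs, had a log2 intensity of 14.33 on the Bach2 KO array and 14.20 on the WT array at its brightest probe, a difference of 0.13. Its second detected probe gave 14.22 in the knockout and 14.15 in wild type, a difference of 0.07. These probes stand near the top of the scale. The deposited intensity of the brighter was 20624 in the knockout and 19005 in wild type, where the brightest probes of those arrays read 25112 and 24732. The table marks no saturated probes, so a compressed difference cannot be seen. The remaining B2m probe was below background, with detection p-values of 0.995 (knockout) and 0.846 (wild type), and gives no level.

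H2-K1, the heavy chain that presents peptides as H-2Kb in this strain, had a log2 intensity of 10.44 in the knockout and 10.29 in wild type, a difference of 0.15, and its second probe differed by 0.18. H2-D1, the other classical heavy chain, had 11.91 in the knockout and 12.02 in wild type at its single probe, a difference of -0.12. The 2 heavy chains thus had opposite signs, each smaller than the scatter between probes of a gene. Class I heavy chains are close relatives, and whether their probes bind transcripts of each other was not tested.

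**Figure D2:**
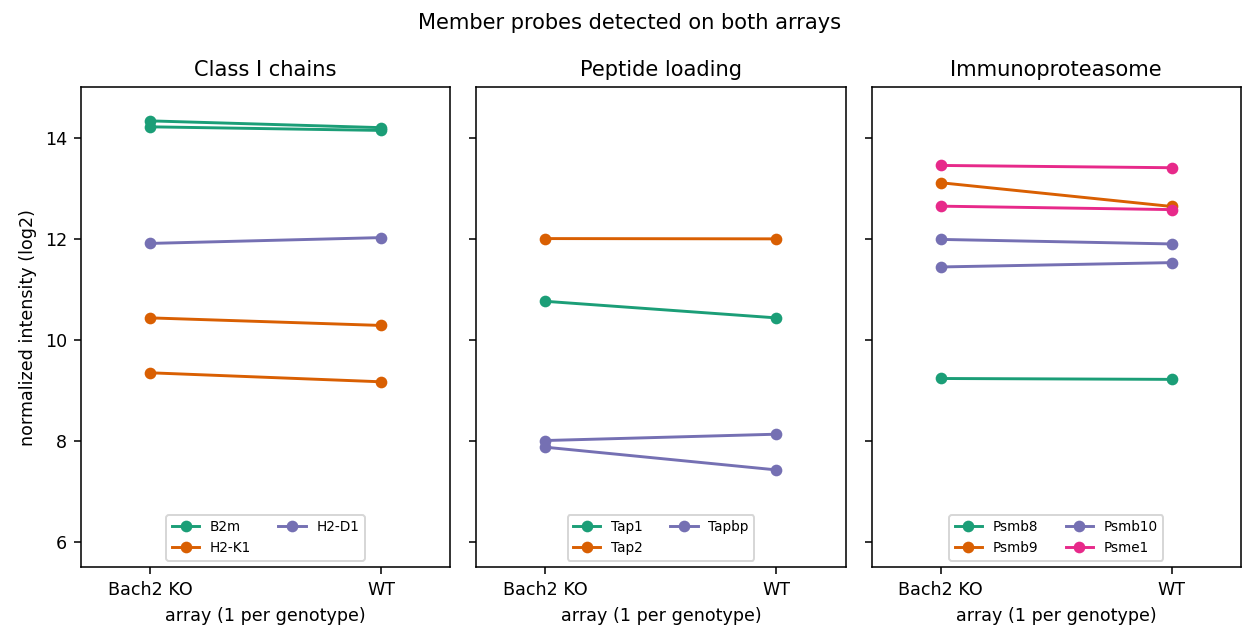
Normalized log2 intensity (y axis) of the 15 class I probes detected on both arrays, with the Bach2 KO array on the left and the WT array on the right of each panel and a line joining the values of a probe. Most lines are flat, and the Psmb9, Tap1 and dimmer Tapbp lines are higher at the Bach2 KO end.

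Of the peptide loading genes, none reached 1.5-fold and Tap1 had the largest difference at the brightest probe. Tap1, a subunit of the TAP peptide transporter, had a log2 intensity of 10.76 in the knockout and 10.44 in wild type, a difference of 0.33 or 1.26-fold. Among all genes compared, 16.6% were higher in the knockout by at least as much. Tap2, which pairs with Tap1 in the transporter, had 12.01 in the knockout and 12.00 in wild type, a difference of 0.01. Tap1 and Tap2 are each read by 1 probe, so neither value has a second reading.

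Tapbp encodes tapasin, which bridges TAP and the empty class I molecule, and its 2 probes disagreed in direction. The brighter, annotated to a different RefSeq transcript from the other, had a log2 intensity of 8.01 in the knockout and 8.13 in wild type, a difference of -0.13. The dimmer had 7.88 in the knockout and 7.43 in wild type, a difference of 0.45. The gap between the probes was 0.57. Over the 1261 genes with 2 detected probes the median gap was 0.18, and 7.53% had a gap at least as wide as that of Tapbp. No direction is therefore given for Tapbp, and whether the probes read different isoforms was not tested.

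Of the immunoproteasome genes, Psmb9 differed most. Psmb9, the inducible catalytic subunit that takes the place of Psmb6, had a log2 intensity of 13.11 on the Bach2 KO array and 12.64 on the WT array, a difference of 0.47 or 1.39-fold. It had the largest difference of the 10 genes in this normalization, and 11.1% of all genes compared were higher in the knockout by at least as much. It too is read by 1 probe. With median scaling of the arrays in place of quantile normalization, its difference was 0.59, which is past the 1.5-fold line. That scaling also raised the median of all genes compared, from -0.03 to 0.05.

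The other immunoproteasome genes were flat. Psmb8, which takes the place of Psmb5, had a log2 intensity of 9.24 in the knockout and 9.22 in wild type, a difference of 0.02. Psmb10, which takes the place of Psmb7, had 11.99 in the knockout and 11.90 in wild type, a difference of 0.09, and its second probe differed by -0.09. Psme1, a subunit of the PA28 cap that opens the proteasome, had 13.45 in the knockout and 13.41 in wild type, a difference of 0.05, and its second probe differed by 0.07. Along the 4 neighbouring genes, then, Psmb9 and Tap1 on their shared stretch differed by 0.47 and 0.33, whereas Psmb8 and Tap2 beside them differed by 0.02 and 0.01. Differences between genes read by 1 probe each could not be tested.

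**Figure D3:**
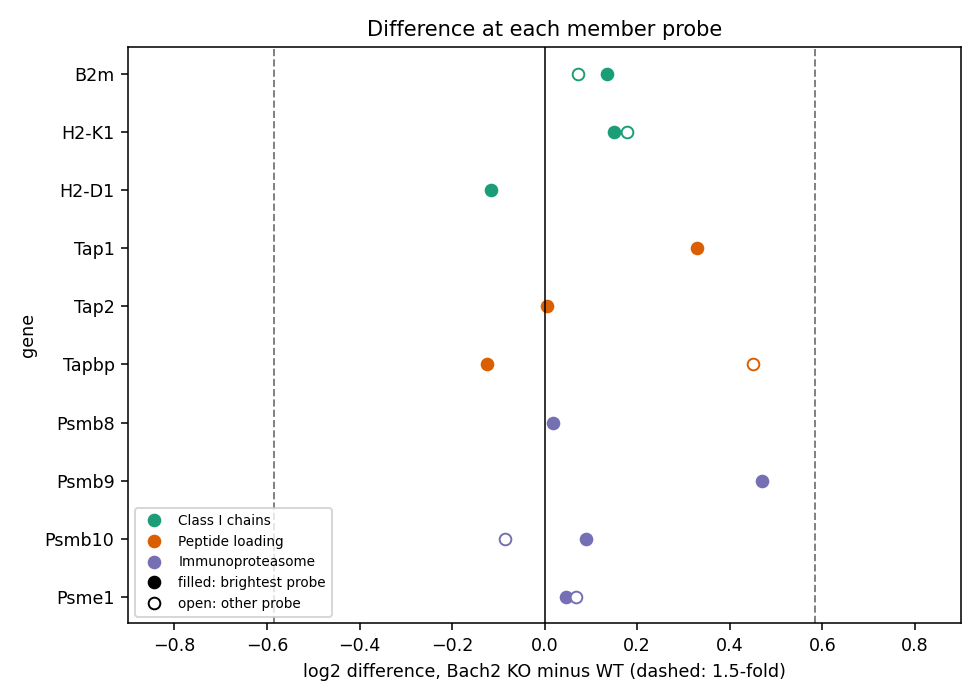
Log2 difference (Bach2 KO minus WT, x axis) at every class I probe detected on both arrays, by gene (y axis), with the brightest probe filled and other probes open. All points lie inside the dashed 1.5-fold lines, and the open Tapbp point at 0.45 stands on the other side of 0 from its filled point at -0.13.

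The constitutive catalytic subunits were all within 1.5-fold at their brightest probes. Psmb7 differed by 0.44, Psmb5 by 0.32 and Psmb6 by 0.21. The 3 probes of Psmb7 differed by 0.30 to 0.67, all in the same direction, and the largest was past 1.5-fold. Inducible minus constitutive, the difference was -0.30 for Psmb8 and Psmb5, 0.26 for Psmb9 and Psmb6, and -0.35 for Psmb10 and Psmb7. The sign thus differed among the 3 pairs, and these gaps have no replicate error.

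Most other proteasome genes were slightly above 0 in the knockout. Of 38 detected genes outside the members, 35 (92.1%) had a difference above 0 at the brightest probe, against 46.7% of all genes compared. None reached 1.5-fold in either direction at that probe, and their median log2 difference was 0.18. Among the other detected probes, those of Psmb7 at 0.67 and Psmd7 at 0.64 were past 1.5-fold, and no probe was lower by as much. Psmd6, at -0.07, had a second probe at 0.54, whereas the other probes of Psmd10, at -0.08, gave -0.02 and -0.06. All 9 detected genes among the other core subunits were above 0, from 0.02 for Psmb3 to 0.36 for Psma5, with a median of 0.17. All 7 activators and assembly factors were above 0, with a median of 0.20. They included Psme3, the nuclear activator, at 0.33, the assembly chaperones Psmg1 at 0.34 and Pomp at 0.20, and Psme2, the partner of Psme1 in PA28, at 0.14. The Psme2 probe was dim, at 6.70 in the knockout and 6.57 in wild type, where the dimmest detected probes read 5.81 and 5.80. Of 19 subunits of the regulatory particle that unfolds ubiquitinated proteins, 16 were above 0, with a median of 0.15. Psmc5, an ATPase, was highest at 0.41, and Psmd4, a ubiquitin receptor, was lowest at -0.10. Most of these values are within the scatter between probes of a gene. Median scaling in place of quantile normalization raised the medians of these 4 lists by 0.08 to 0.12. The median of all genes rose with it as well, from -0.03 to 0.05.

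Among genes that fold, load or trim class I cargo, none of 12 detected was past 1.5-fold, and the median was 0.15. Blmh, a cytosolic aminopeptidase, differed by 0.51, Thop1, which degrades cytosolic peptides, by 0.47, Erap1, which trims peptides in the endoplasmic reticulum, by 0.28 and the chaperone Hspa5 by 0.36. Sec61b, a subunit of the translocon, was highest at 0.54, and its second probe differed by 0.29. Its brighter probe was dim, at 6.73 in the knockout and 6.20 in wild type, where the dimmest detected probes read 5.81 and 5.80. The lectin chaperone Calr differed by -0.00, the disulphide isomerase Pdia3 of the loading complex by 0.04 and Tapbpl, the tapasin relative that edits peptides, by -0.11. Uggt1, which recognises misfolded glycoproteins, was lowest at -0.25.

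Of the class I-like genes, 10 of 20 with a probe were detected, none was past 1.5-fold, and the median was -0.07. H2-Q8 was highest at 0.47. H2-T23, which encodes Qa-1, a ligand of NK cell receptors, differed by -0.06, with a second probe at 0.05, and H2-Q7 (Qa-2) by -0.05. H2-M3, which presents formylated peptides, differed by 0.04, Cd1d1, which presents lipids to NKT cells, by -0.19 and H2-T10 by -0.20. H2-Ke6, lowest at -0.42, carries an H2 name but encodes a hydroxysteroid dehydrogenase. Mr1, which presents vitamin metabolites, was detected on the WT array only.

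**Figure D4:**
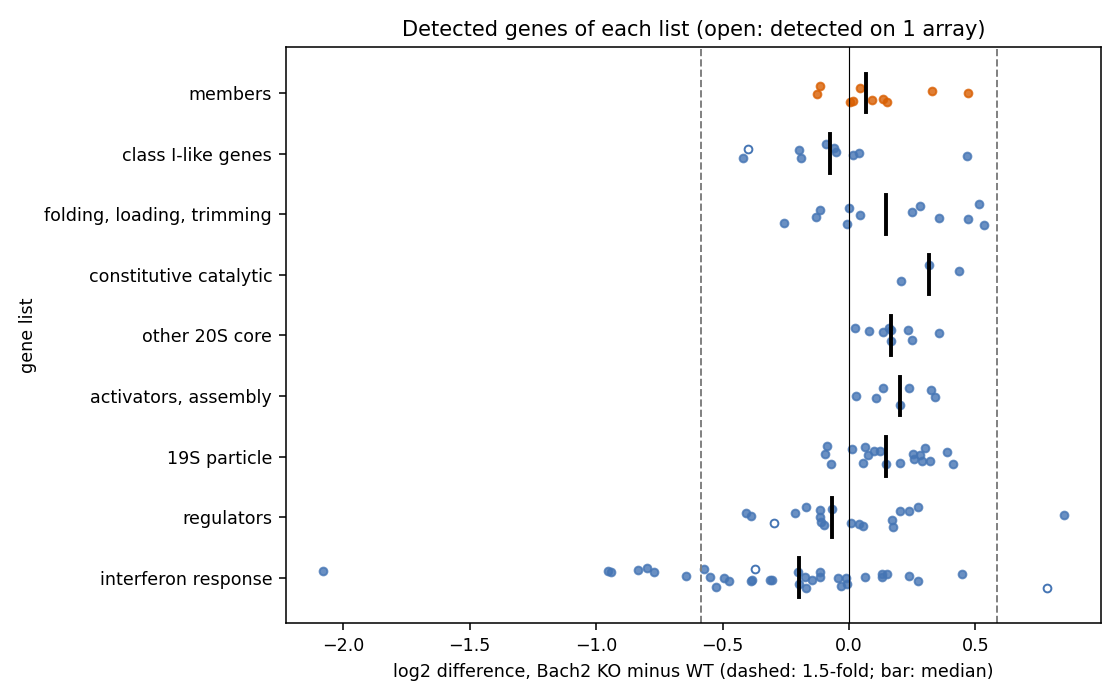
Log2 difference (Bach2 KO minus WT, x axis) of the detected genes of each list (y axis), with a bar at the median and open points for genes detected on 1 array. The 4 lists of other proteasome genes lie almost wholly to the right of 0, while the interferon response genes extend to the left.

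The listed regulators of class I transcription, which include interferon receptor chains and kinases as well as transcription factors, differed in both directions. Of 19 detected, 1 was higher by 1.5-fold or more, none was lower by as much, and the median was -0.07. The 1 was Irf8, a factor also prominent in myeloid and B cells, at 0.85. Nlrc5, the class I transactivator, had a log2 intensity of 11.70 in the knockout and 11.46 in wild type, a difference of 0.24. Irf1, an interferon-induced activator of Psmb9 and Tap1, had 13.87 in the knockout and 13.67 in wild type, a difference of 0.20, and its other probes ranged from -0.50 to 0.31. Of the interferon gamma receptor chains, Ifngr1 differed by 0.01 at its probe. Ifngr2 differed by -0.11 at its brightest probe but by -1.20 and -1.36 at its other probes, so its probes disagreed on the size of the difference. Ifnar2, a chain of the type I interferon receptor, differed by -0.41, with other probes at -0.72 and -0.03. The kinase Jak1 differed by -0.39.

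Interferon response genes, induced by the same cytokines as the members, lay mostly within 1.5-fold. Of 36 detected, 29 did so, 7 were lower by 1.5-fold or more and none was higher by as much, where 6.77% of all genes compared were lower by 1.5-fold. By sign, 28 of the 36 were below 0, against 4051 of all 7611 genes. The median was -0.20, against -0.03 for all genes. The scatter of 0.23 between probes refers to single genes and is no measure of error for the median of a list. The 7 were Ly6c1 (-2.08), which is also a gene of naive T cells, Rtp4 (-0.95), Usp18 (-0.94), Oasl1 (-0.83), Mx2 (-0.80), Oas2 (-0.77) and Ifit3 (-0.64, with other probes at -0.69 and -0.12). The list also holds GTPases induced by interferon gamma. Of those detected on both arrays, Gbp3 differed by 0.24, Igtp by 0.15, Irgm1 by 0.13, Gbp7 by -0.01, Gbp2 by -0.17, Gbp5 by -0.20, Irgm2 by -0.39 and Tgtp1 by -0.50. The other probes of Gbp7 and Irgm1 included values of 0.49 and -0.32, on the other side of 0. Iigp1 was detected on the Bach2 KO array only, barely above the dimmest detected probe. The median of the 10 class I genes on the same arrays was 0.07.

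Every nucleated cell carries class I, so markers of other cells are given beside these values. Summed over detected markers, deposited intensity was 1859 on the Bach2 KO array and 1342 on the WT array for 4 of 8 B cell markers with a probe, with Ms4a1 and Pax5 not detected. Those detected on both arrays went both ways, with log2 differences of 1.16 for Cd79b, 1.10 for Cd22 and -1.37 for Fcmr. Cd79a was detected in wild type only, barely above the dimmest detected probe. For 7 of 13 myeloid and dendritic markers it was 4620 in the knockout and 3091 in wild type, with Itgam, Itgax and Flt3 not detected. Of these 7, Tyrobp (detected in the knockout only), Cd74 (0.80) and Fcer1g (0.73) were past 1.5-fold, Lyz2 differed by 0.04, H2-Aa by 0.02, Adgre1 by -0.14 and Siglech by -0.30, and their median was 0.04. For 3 of 4 NK cell markers it was 709 in the knockout and 410 in wild type, with Ncr1 not detected. For the 4 mast cell and basophil markers it was 915 in the knockout and 332 in wild type, all 4 past 1.5-fold. For 5 of 6 neutrophil markers it was 528 in the knockout and 2909 in wild type, with Ngp not detected. Cd8b1, the detected one of 2 CD8 T cell markers, read 1185 in the knockout and 985 in wild type. The sum was 6312 in the knockout and 4864 in wild type for 3 of 5 plasma cell markers, with Sdc1 and Tnfrsf17 not detected. Most of that sum came from Xbp1, with a log2 intensity of 12.51 in the knockout and 12.20 in wild type. Mzb1 had 8.21 and 8.09, and Jchain was detected in the knockout only. For 2 of 5 red cell and platelet markers the sum was 187 in the knockout and 484 in wild type. The part of these cells in the values of the 10 genes was not tested, and fewer cells of a type and less RNA per cell cannot be told apart in such samples.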

How the data were processed

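The deposited probe table gives, for each array, an intensity and a detection p-value, and its header calls it non-normalized. Some intensities were below 0 (29.5% on the Bach2 KO array and 30.4% on the WT array), so background had been subtracted. No source names the scanning software. The authors' series matrix was a straight-line function of that table per array, with residuals of at most 0.0091.

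From the intensities, normexp correction on the detection p-values, an offset of 16, quantile normalization and log2 were applied (neqc, limma 3.58.1, R 4.3.3). Detected means a detection p-value under 0.01. A gene detected on 1 array was counted by the lower bound of its fold, against the dimmest detected probe there. Probes were named by GEO's platform annotation (23978 of 25697). Sequences are RefSeq's. With 1 array per genotype there is no test. All 10 members and every list gene past 1.5-fold were named, with preset regulators and subunits. Members and lists were chosen with earlier results of these data known. On simulated arrays with 10820 probes compared, 50 probes were changed for each fold and direction. At the 1.5-fold line, 54.0% of probes made 1.5-fold higher and 36.0% of those made 1.5-fold lower were called. Of those made 2-fold higher and lower, 92.0% and 88.0% were called, as were 2.43% of unchanged probes. The simulated scatter was taken from the differences of bright probes between these 2 arrays, so these shares are not error rates for the real arrays. The background step, normalization, offset, table, filter and probe choice were varied.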

Additional observations from a re-analysis of the deposited data

How the results depend on the processing

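Each of 28 values and counts was recomputed under 11 alternatives, 1 of them (median scaling over probes detected on both arrays) chosen after seeing the data. Differences of single genes were called moved past the scatter between probes (0.23), list medians past 0.1 and counts past 1.5 times. Of 308 recomputed values, 293 stayed within these limits, but part of that total was fixed in advance. Every member was detected on both arrays, so changes of the detection filter could not alter a member's value. Averaging the detected probes could not alter members with 1 detected probe. Psmb9 ranged from 0.47 to 0.59 and Tap1 from 0.32 to 0.41, and the median of the members from 0.06 to 0.15. Tap2 changed sign under 2 alternatives, between -0.01 and 0.06, and Tapbp was 0.16 with the mean of its probes, which also put the median of the loading genes at 0.16. Median scaling over all probes gave 1 member past 1.5-fold (Psmb9). It moved the medians to 0.27 for folding, loading and trimming genes, 0.27 for other core subunits, 0.32 for activators and assembly factors, 0.25 for the regulatory particle and 0.058 for the regulators, whose sign turned here and also with the series matrix values (0.015) and the mean of detected probes (0.009). The median of all genes moved by under 0.1 in every setting, and farthest with median scaling over all probes, from -0.03 to 0.05. An offset of 50 gave 343 genes at least 1.5-fold lower and 76 at least 2-fold lower, against 515 and 118. The series matrix values gave 379 and 201 genes at least 1.5-fold higher and lower, and 132 and 50 at 2-fold, against 620, 515, 249 and 118. With no filter on dim probes 798 were at least 1.5-fold lower. The causes were not tested. No paired analysis was possible because there was 1 array per genotype, and for the same reason no array could be left out. The number of arrays limits the precision.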
